A study of Mus musculus with 24 samples.

Results

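Transcripts of 7 genes of sodium transport, Scn2a, Scn3a, Scn8a, Scn9a, Scn3b, Atp1b1 and Atp1b3, were followed in MIN6 cells, a mouse insulinoma line that makes insulin and is used as a model of the pancreatic β-cell. The members were taken by gene symbol from a table of read counts for 12310 genes, and all 7 were in the table and passed the filter on low counts. The series held 24 RNA-seq libraries, 12 from untreated control cells and 12 from cells treated with 50 µM verapamil, a blocker of voltage-gated calcium channels, for 24 h. Both groups were cultured at 5.6 mM glucose and shared the same cell line, so treatment was the single labelled difference. The libraries fell into 4 experiment sets with 3 libraries per group, as read from the sample labels. The deposited design text speaks of 12 independent experiments, whereas the study's methods describe 4 sets with 3 replicates each. If the replicates of a set were not separate cultures, n = 12 overstates the independent samples and p-values over 24 libraries rest in part on technical spread, so sums per set, 4 against 4, are given beside them. MIN6 cells are tumor-derived and are 1 line, and these values describe that line alone.

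Voltage-gated sodium channels open on depolarization, let sodium into the cell and carry the fast upstroke of the action potential in neurons. Each channel is built from a large pore-forming α subunit, encoded here by Scn2a (Nav1.2), Scn3a (Nav1.3), Scn8a (Nav1.6) and Scn9a (Nav1.7), and smaller β subunits such as that encoded by Scn3b, which alter gating and surface delivery. The sodium pump (Na+/K+-ATPase) exports sodium and imports potassium at the cost of ATP. Its catalytic α subunit needs a glycosylated β subunit, such as those encoded by Atp1b1 and Atp1b3, to fold and reach the plasma membrane.

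The 4 α-subunit genes are paralogs whose transcripts are near-identical in places, so reads of these genes could be confused. The longest identical run between full transcripts was 184 bases for Scn3a and Scn9a, 143 bases for Scn2a and Scn3a and 101 bases for Scn2a and Scn9a. Of the 50-base stretches of Scn2a, 5.44% also occurred in Scn3a, and for no pair was the share higher. Scn8a shared at most 0.0527% of its 50-base stretches with any of the other 3. A read that lies wholly within a shared stretch does not by itself identify its gene, so a part of the Scn2a, Scn3a and Scn9a counts may be uncertain. Its size was not measured and may not be small for Scn9a, which had 16 to 93 counts per control library. Scn3a had 2055 to 5391, and 4.27% of its 50-base stretches also occurred in Scn9a.

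Scn2a (ENSMUSG00000075318, chr2:65620771-65767447, plus strand), Scn3a (ENSMUSG00000057182, chr2:65457118-65567627, minus strand) and Scn9a (ENSMUSG00000075316, chr2:66480080-66634962, minus strand) belong to a cluster of sodium channel genes on chromosome 2 (GRCm38). Scn8a (ENSMUSG00000023033) is at chr15:100869858-101045938 on the plus strand and Scn3b (ENSMUSG00000049281) at chr9:40269217-40291618 on the plus strand. Atp1b1 (ENSMUSG00000026576) is at chr1:164437109-164458355 on the minus strand and Atp1b3 (ENSMUSG00000032412) at chr9:96332655-96364442 on the minus strand.

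Total counts ranged from 12590476 to 32360171 in control and from 21840159 to 44806556 in verapamil libraries. Of 12306 genes tested with edgeR's quasi-likelihood test, 31.2% were higher and 31.6% lower with verapamil at an adjusted p under 0.05, so a call in either direction was the most common outcome. The biological coefficient of variation was 0.102 among control and 0.274 among verapamil libraries. In verapamil libraries, the log2 level of a gene relative to the control mean correlated across genes with the GC content of its transcript (r from 0.0363 to 0.635, against -0.178 to 0.156 in controls) and with its log2 length (r from -0.586 to -0.0379, against -0.131 to 0.126). These are descriptions across genes, which are not independent replicates. The length correlation was most negative in the library of column V11 (set 4), so values without V11 stand beside the results it moved. Of 13 β-cell markers 12 were in the table, without Ucn3, and their summed level was 4380 to 5480 CPM (counts scaled by library size with TMM factors) in control and 4090 to 4770 CPM in verapamil libraries, with 1 called higher and 5 lower. Neuron markers, 5 of 6 in the table, summed to 469 to 528 CPM in control and 216 to 540 CPM in verapamil libraries, with 1 higher and 2 lower, and their part in the results on the members was not tested. α-cell markers (2 of 4) summed to 302 to 328 CPM in control and 235 to 380 CPM in verapamil libraries, and ductal markers (2 of 3) to 34.8 to 44.2 and 35.9 to 53.7 CPM, each list with 1 higher and 1 lower. No marker of δ-cells, PP cells, acinar cells, fibroblasts, endothelium or leukocytes was in the table analysed.

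All 4 α-subunit members fell with verapamil, to between 0.375 and 0.685 of their control level in the edgeR fit, whereas the 3 β-subunit members moved little. In all, 5 of 7 members were lower, 0 were higher and 2 did not pass, against 31.6% lower and 31.2% higher among all genes. The median log2 fold change was -0.55 over the members and -0.0033 over all genes tested.

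Scn3a, the most abundant α-subunit transcript, and Scn2a fell together. In control libraries Scn3a was between 147 and 194 CPM with a median of 172 CPM. In verapamil libraries it was 120, 94.5 and 133 CPM in set 1, 72.5, 41.0 and 54.2 CPM in set 2, 62.5, 34.4 and 68.8 CPM in set 3 and 137, 48.9 and 141 CPM in set 4. Every verapamil library was therefore below every control library, and sets 2 and 3 with V11 held the lowest values. The mean was 172 ± 12.8 CPM in control and 84.0 ± 39.5 CPM in verapamil libraries (SD over 12 libraries). The log2 fold change was -1.04 ± 0.193 (SE; edgeR adjusted p = 8.03e-05). Among all genes, 5.18% had all 12 verapamil libraries below every control. In these bulk libraries, fewer cells with the transcript and less transcript per cell cannot be told apart.

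Scn2a, a neighbour of Scn3a on the chromosome, was between 22.1 and 28.2 CPM in control libraries, with a median of 25.9 CPM. With verapamil it was 16.9, 13.6 and 19.7 CPM in set 1, 8.45, 6.37 and 6.86 CPM in set 2, 8.41, 4.59 and 8.98 CPM in set 3 and 20.2, 6.30 and 20.1 CPM in set 4. The groups again did not overlap, and 7 verapamil libraries, those of sets 2 and 3 and V11, were under 10 CPM. The mean was 25.4 ± 2.19 CPM in control and 11.7 ± 6.02 CPM in verapamil libraries (SD over 12 libraries), with a log2 fold change of -1.11 ± 0.206 (SE; edgeR adjusted p = 7.69e-05).

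Scn9a, whose product amplifies small depolarizations in mouse sensory neurons, was scarce, with 16 to 93 counts per control library and 4 to 61 counts per verapamil library. In control libraries it was between 1.28 and 3.65 CPM, with a median of 1.90 CPM. In verapamil libraries it was 1.56, 1.24 and 1.35 CPM in set 1, 0.531, 0.277 and 0.533 CPM in set 2, 0.39, 0.180 and 0.696 CPM in set 3 and 1.02, 0.399 and 0.974 CPM in set 4. Of the verapamil libraries 10 were below every control, and the other 2, both of set 1, lay within the control range. The log2 fold change was -1.41 ± 0.260 (SE; edgeR adjusted p = 6.96e-05), the lowest of the members, with the widest 95% interval (-1.92 to -0.90).

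Scn8a encodes the α subunit that clusters at the axon initial segment of neurons. It was between 35.6 and 57.4 CPM in control libraries (median 48.1 CPM). With verapamil it was 36.4, 33.3 and 46.1 CPM in set 1, 29.4, 25.5 and 29.0 CPM in set 2, 28.1, 22.8 and 30.7 CPM in set 3 and 48.4, 17.1 and 42.3 CPM in set 4. The groups overlapped, with 8 of 12 verapamil libraries below every control. Scn8a averaged 47.4 ± 5.70 CPM in control and 32.4 ± 9.41 CPM in verapamil libraries (SD over 12 libraries), giving a log2 fold change of -0.55 ± 0.126 (SE; edgeR adjusted p = 0.00073), and its 95% interval of -0.79 to -0.30 overlapped those of Scn2a (-1.51 to -0.71) and Scn3a (-1.41 to -0.66).

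**Figure D1:**
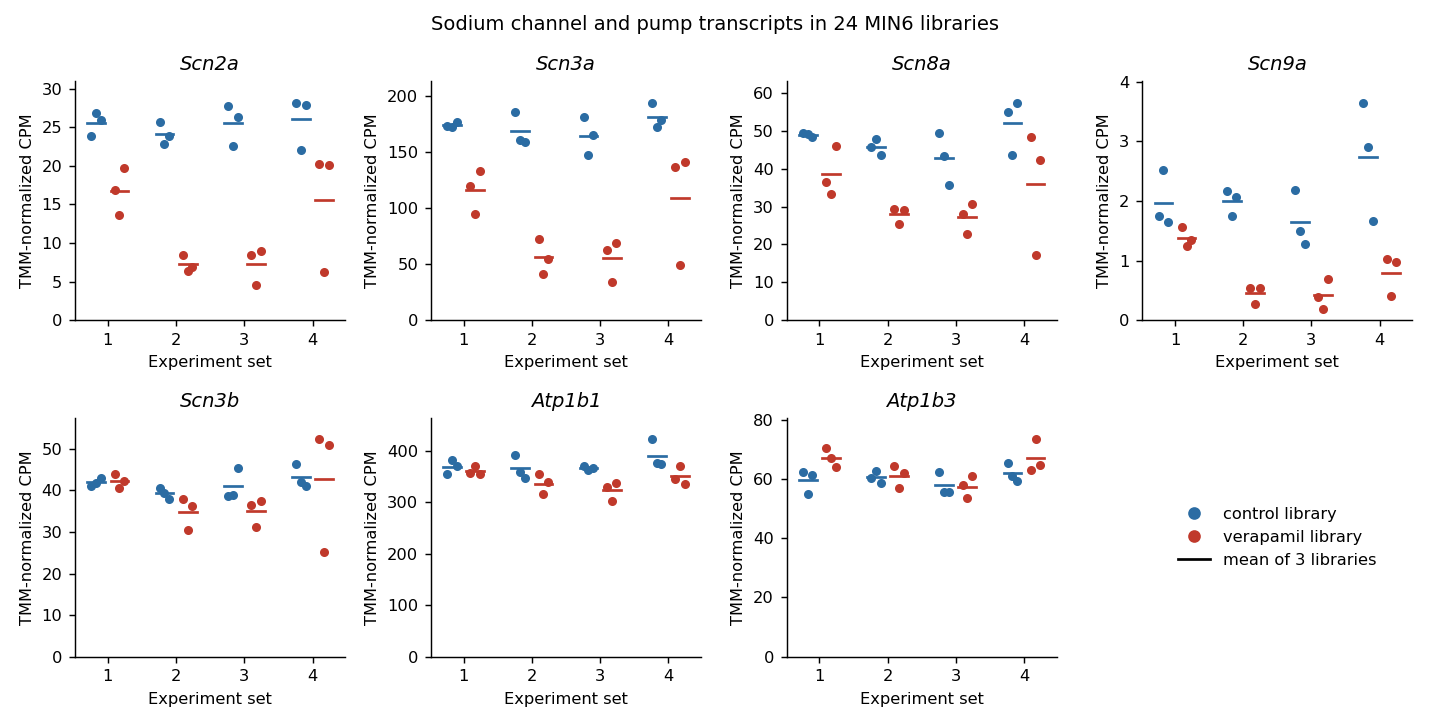
TMM-normalized CPM of each member (vertical axis, one panel per gene, starting at 0) in the 4 experiment sets (horizontal axis), with a point per library and a line at the mean of 3 libraries. The verapamil points of Scn2a and Scn3a lie below all control points, while those of Scn3b, Atp1b1 and Atp1b3 overlap the controls.

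The make-up of the α-subunit transcripts was described per length, as CPM per kilobase of the longest transcript, over the 5 α-subunit genes in the table (the 4 members and Scn1a). Summed over these genes, the level was 25.3 ± 1.91 CPM per kb in control and 13.1 ± 5.64 CPM per kb in verapamil libraries (SD, n = 12 each), with no overlap between the groups (at least 22.0 in control and at most 21.0 with verapamil). Scn3a made up 71.1 ± 1.35% of the sum in control and 66.1 ± 4.14% in verapamil libraries. The gap between the groups in the sum is therefore largely that of Scn3a and is no separate result. The share of Scn8a was 16.3 ± 1.35% in control and 23.2 ± 4.90% with verapamil, where it ranged from 17.7 to 32.5%. That of Scn2a was 11.2 ± 0.652% and 9.72 ± 0.960%, and that of Scn9a 0.831 ± 0.229% and 0.563 ± 0.183%. Scn3a thus led and Scn8a came next in both groups, and the highest Scn8a shares were in V5 and V8, the libraries with the lowest summed levels. V11, where Scn3a was also low (48.9 CPM), had an Scn8a share of 20.3%, so the share did not follow the level throughout. Scn1a, named after its values were seen, was the fifth gene and averaged 1.18 ± 0.358 CPM without and 0.396 ± 0.308 CPM with verapamil (log2 fold change -1.50 ± 0.312, SE; edgeR adjusted p = 0.00027, and 0.25 with the GC and length slopes of each library as covariates).

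**Figure D2:**
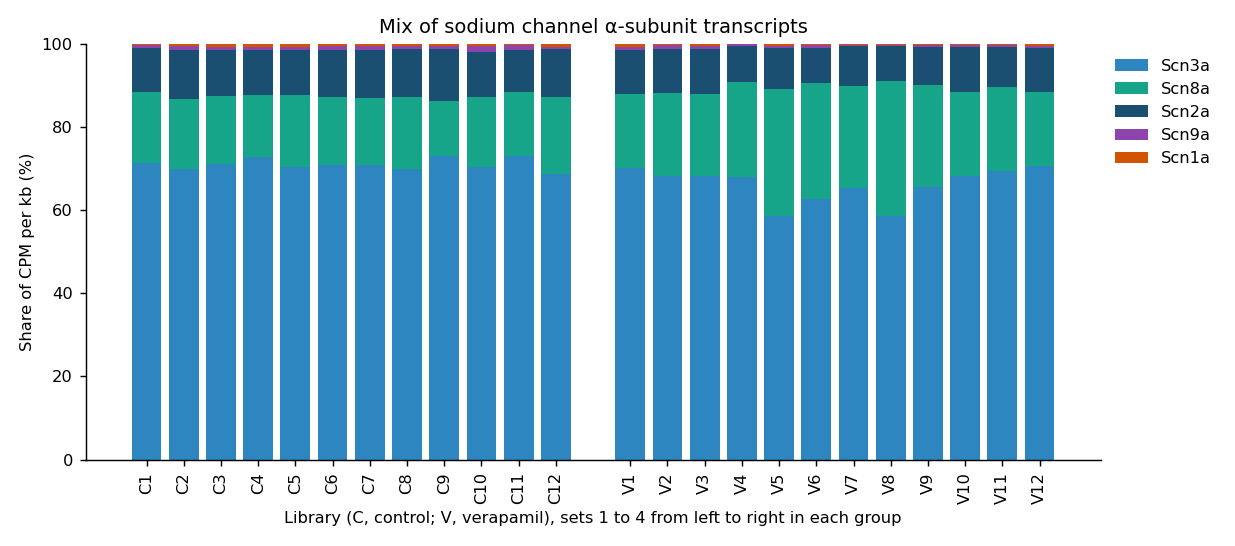
Share of each α-subunit gene in the summed CPM per kb of the 5 measured genes (vertical axis, %) in each library (horizontal axis, C control and V verapamil). Scn3a held between 58.6 and 73.2% in all 24 libraries, and the band of Scn8a was widest in V5 and V8.

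Scn3b, the β-subunit member, did not pass the test. It was between 38.0 and 46.4 CPM in control libraries (median 41.0 CPM). With verapamil it was 44.0, 40.5 and 42.3 CPM in set 1, 37.8, 30.5 and 36.1 CPM in set 2, 36.4, 31.1 and 37.5 CPM in set 3 and 52.2, 25.1 and 50.9 CPM in set 4. Verapamil libraries lay on both sides of the control range, 7 below it and 2 above it. The log2 fold change was -0.09 ± 0.088 (SE; 95% interval -0.27 to 0.08; edgeR adjusted p = 0.362).

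The pump β subunits moved less than the α subunits of the channels. Atp1b1, the more abundant β subunit, was between 347 and 422 CPM in control libraries (median 370 CPM). With verapamil it was 356, 371 and 354 CPM in set 1, 354, 316 and 339 CPM in set 2, 330, 302 and 337 CPM in set 3 and 346, 370 and 336 CPM in set 4. The groups overlapped, with 7 of 12 verapamil libraries below every control. Atp1b1 fell from a mean of 373 ± 19.7 CPM to 343 ± 20.6 CPM (SD over 12 libraries), giving a log2 fold change of -0.12 ± 0.038 (SE; edgeR adjusted p = 0.00725), and the call was lost with upper-quartile scaling (-0.06, edgeR adjusted p = 0.16). Atp1b1 shares 575 exonic bases with Nme7 on the opposite strand. Whether reads were counted by strand is not stated in the sources used here, and Nme7 itself averaged 2.74 ± 0.480 CPM without and 2.35 ± 0.570 CPM with verapamil.

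Atp1b3, which encodes another β subunit, was between 54.9 and 65.3 CPM in control libraries (median 60.8 CPM). With verapamil it was 70.5, 67.1 and 64.0 CPM in set 1, 64.3, 56.8 and 62.1 CPM in set 2, 57.9, 53.5 and 60.9 CPM in set 3 and 63.0, 73.3 and 64.6 CPM in set 4. Only 3 verapamil libraries were above and 1 was below every control, and the log2 fold change was 0.07 ± 0.048 (SE; 95% interval -0.02 to 0.17; edgeR adjusted p = 0.173). Per length, the log2 ratio of Atp1b1 over Atp1b3 was 2.27 ± 0.0891 in control and 2.07 ± 0.0582 in verapamil libraries (SD, n = 12 each). Its ranges met at 2.14, the lowest control and the highest verapamil value, so Atp1b1 was the more abundant transcript in every library and its lead was smaller with verapamil.

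Atp1b2, another β subunit, averaged 1.89 CPM without and 1.58 CPM with verapamil and fell by 0.27 on the log2 scale (edgeR adjusted p = 0.0418). That call was lost with upper-quartile scaling (edgeR adjusted p = 0.12), on the sums per experiment set (0.11) and with the GC and length slopes as covariates (0.078).

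The promoters of 3 members are shown because these genes differ in response and in base composition: Scn2a fell by over 1 on the log2 scale, Atp1b1 by 0.12, and Atp1b3 did not pass. RefSeq entries (GRCm38.p6) matched 5 of 7 members, and the 250 bases before a transcription start are printed 5′ to 3′ on the gene's strand. Searched on both strands were the GC box (GGGCGG), the CCAAT box (CCAAT) and the TATA box (TATAAA), found in 32.7%, 33.8% and 12.4% of 32851 promoter windows of this length, and matches are in capitals.
Scn2a chr2:65620519-65620768 (plus strand): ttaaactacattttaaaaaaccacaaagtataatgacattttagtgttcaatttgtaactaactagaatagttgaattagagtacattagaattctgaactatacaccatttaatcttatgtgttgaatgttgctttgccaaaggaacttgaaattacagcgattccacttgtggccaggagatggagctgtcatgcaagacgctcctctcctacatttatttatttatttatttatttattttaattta
Atp1b1 chr1:164458356-164458605 (minus strand): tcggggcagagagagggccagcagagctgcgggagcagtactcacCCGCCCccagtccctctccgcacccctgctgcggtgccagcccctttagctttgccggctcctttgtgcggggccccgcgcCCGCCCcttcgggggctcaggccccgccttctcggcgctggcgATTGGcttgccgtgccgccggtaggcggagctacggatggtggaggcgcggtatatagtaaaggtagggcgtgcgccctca
Atp1b3 chr9:96364432-96364681 (minus strand): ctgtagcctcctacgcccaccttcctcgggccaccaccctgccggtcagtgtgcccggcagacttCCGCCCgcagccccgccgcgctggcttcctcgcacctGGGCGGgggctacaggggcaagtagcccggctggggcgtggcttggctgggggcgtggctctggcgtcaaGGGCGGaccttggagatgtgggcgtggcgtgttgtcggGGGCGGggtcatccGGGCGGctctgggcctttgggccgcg
The Scn2a window was 29.6% GC with no match, the Atp1b1 window 70.4% GC with 2 GC boxes and 1 CCAAT box, and the Atp1b3 window 73.6% GC with 5 GC boxes, against a median of 52.4% GC over all windows. RefSeq lists another start for Scn2a, whose window was 53.2% GC with 1 TATA box, and another for Atp1b3, whose window was 76.8% GC with no match. The windows of Scn8a (68.0% and 53.2% GC, for its 2 starts) and Scn9a (54.4% GC), which also fell, held none of these letters. Whether response goes with promoter composition was not tested. A match describes the letters and not a bound factor.

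The size of the fall was set beside the experiment sets. Within each set, the mean log2 CPM of the control libraries was taken from that of the verapamil libraries. For Scn2a, this difference was -0.63 in set 1, -1.74 in set 2, -1.85 in set 3 and -0.92 in set 4. Scn3a gave -0.60, -1.63, -1.63 and -0.89, Scn9a -0.47, -2.02, -1.90 and -1.72, and Scn8a -0.36, -0.71, -0.65 and -0.65 in the same order. The means of the α-subunit members were therefore lower in all 4 sets, least so in set 1, but the set 4 means include V11. In V10 and V12, Scn2a (20.2 and 20.1 CPM) and Scn3a (137 and 141 CPM) were above every verapamil library of set 1 (at most 19.7 and 133 CPM). For both genes the order of sets 1 and 4 thus depends on V11. Scn8a was 48.4 and 42.3 CPM there, against 33.3 to 46.1 CPM in set 1, and Scn9a was lower than in set 1 (1.02 and 0.974 against at least 1.24 CPM). Scn3b gave 0.01, -0.18, -0.23 and -0.09, Atp1b1 -0.03, -0.12, -0.18 and -0.15, and Atp1b3 0.18, 0.01, -0.01 and 0.11. No member passed the test of an interaction between treatment and set in edgeR, which 9.72% of all genes passed, and the lowest adjusted p was 0.0838 for Scn2a. Without set 4, Scn2a, Scn3a and Scn9a passed, as did 18.4% of all genes. Without V11, 32.9% of all genes passed, and among the members the edgeR adjusted p was 0.000509 for Scn2a, 0.00335 for Scn3a, 0.0251 for Scn3b and 0.0445 for Scn9a. When the 3 libraries of each set and group were summed, the 4 control and 4 verapamil sums did not overlap for Scn2a, Scn3a, Scn8a, Scn9a and Atp1b1 (p = 0.0286 for each by a two-sided exact permutation test, unadjusted, where 4 against 4 can go no lower). They overlapped for Scn3b and Atp1b3 (exact permutation p = 0.371 for each). The share of all genes whose sums did not overlap was not computed, so how common this is remains unknown. In edgeR on these sums, where 24.4% of genes were higher and 17.3% lower, the 4 α-subunit members stayed lower (adjusted p from 0.013 to 0.018) and Atp1b1 did not pass (adjusted p = 0.11).

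Within a single set, the share of genes called was 27.6% in set 1, 57.2% in set 2, 43.3% in set 3 and 0.406% in set 4. Scn2a, Scn3a and Scn8a passed the edgeR test within sets 1, 2 and 3, and Scn9a within sets 2 and 3. None of the members passed within set 4, where V11 was far below V10 and V12 for all 4 α-subunit members. Without V11 the log2 fold changes over all sets were -1.06 for Scn2a, -0.99 for Scn3a, -0.49 for Scn8a and -1.36 for Scn9a, and all 4 stayed called.

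**Figure D3:**
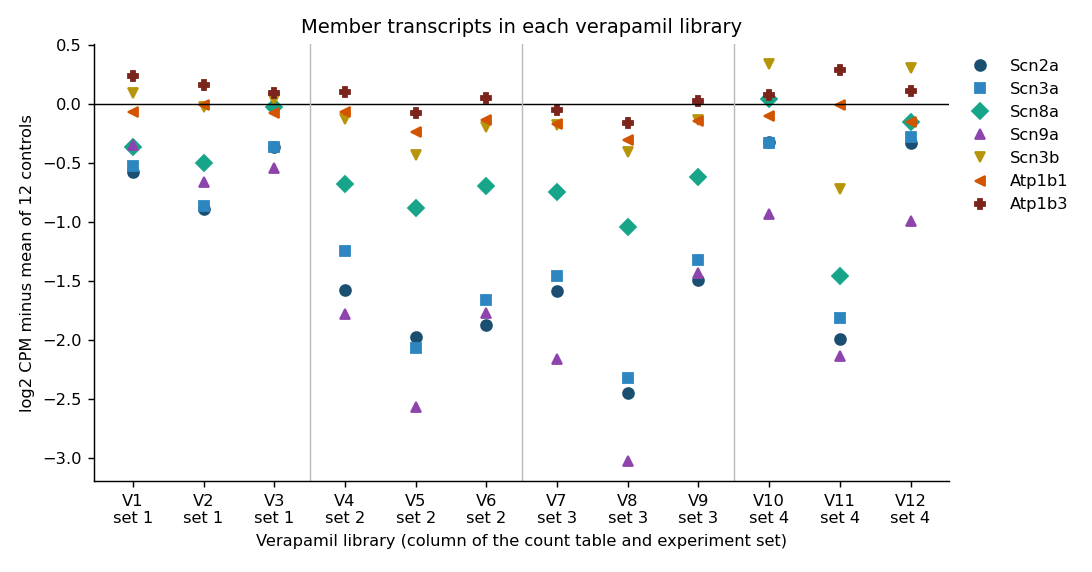
Log2 CPM of each member minus its mean over the 12 controls (vertical axis) in each verapamil library (horizontal axis, grouped by experiment set, with a line at 0). Scn2a, Scn3a and Scn9a lie lowest in sets 2 and 3 and in V11, and Atp1b1 and Atp1b3 lie near 0 in every library.

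The 4 α-subunit transcripts were long, and all but Scn8a were below the median in GC content. The longest transcript had 11436 bases for Scn8a, 9840 for Scn9a, 9560 for Scn3a and 8935 for Scn2a, against a median of 3220 bases over all genes. Their GC content was 50.8%, 42.4%, 42.1% and 43.4%, against a median of 49.8%. Scn3b (4150 bases, 47.8% GC), Atp1b1 (2580 bases, 49.5% GC) and Atp1b3 (1994 bases, 47.7% GC) were nearer to the median. A trend of level on GC content and length was fitted over all genes in each library, and its mean over the verapamil libraries, at the length and GC content of each member, was -0.58 for Scn2a, -0.68 for Scn3a, -0.28 for Scn8a and -0.67 for Scn9a on the log2 scale. It was -0.08 for Scn3b, 0.11 for Atp1b1 and 0.09 for Atp1b3.

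With this trend removed from each library, the log2 fold changes of the α-subunit members were smaller and stayed below 0. They were -0.67 for Scn2a, -0.49 for Scn3a, -0.31 for Scn8a and -0.88 for Scn9a (edgeR adjusted p of 3.1e-06, 7.9e-07, 0.00099 and 0.00026), where 34.4% of genes were lower and 21.6% higher. With the GC and length slopes of each library as covariates, 14.2% of genes were lower and 21.2% higher. In that fit Scn2a (-0.27, edgeR adjusted p = 0.0012) and Scn3a (-0.24, 0.00016) stayed lower, Scn8a (-0.05, 0.63) and Scn9a (-0.48, 0.12) did not pass, and Scn3b was higher (0.26, 0.00046). These slopes differ between the groups, and the variance inflation of the treatment term was 1.99, so this fit separates treatment from the trend in part only. Whether the trend arose in the cells or in the libraries was not tested.

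**Figure D4:**
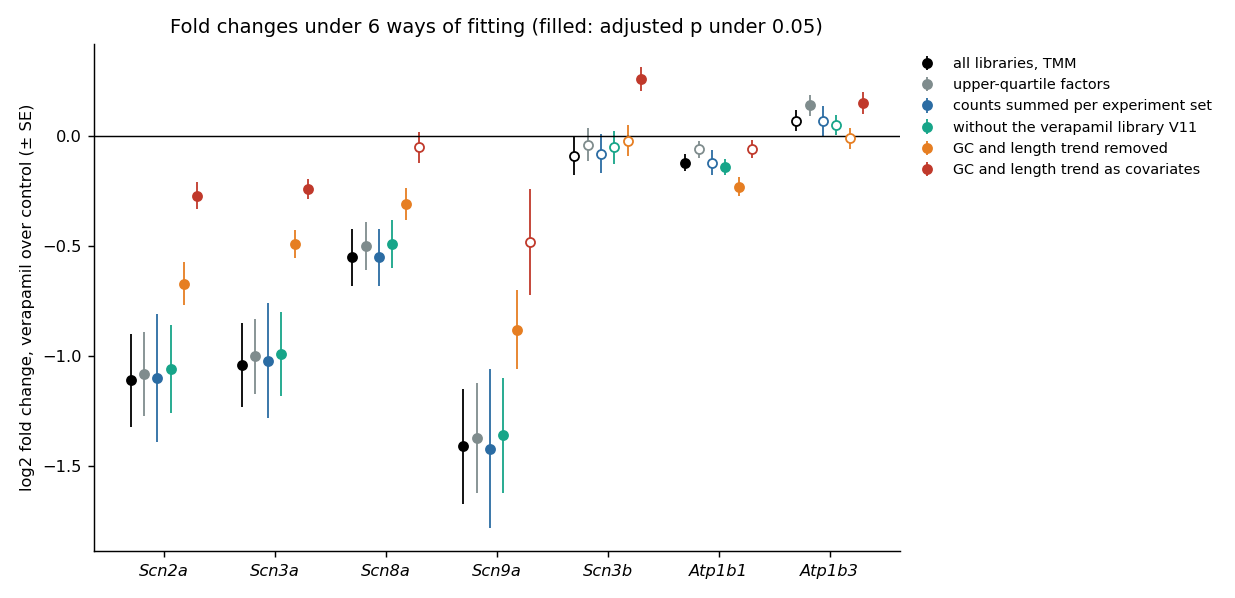
Log2 fold change of each member (vertical axis, error bars ± SE, horizontal line at 0) under 6 ways of fitting, filled where the edgeR adjusted p was under 0.05. Scn2a and Scn3a are filled and below 0 in all 6, and for the α-subunit members the values with the GC and length trend removed or as covariates lie closest to 0.

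Likeness between expression patterns was measured as the root mean square difference, over the 24 libraries, of log2 CPM centred on the control mean, among 7923 genes whose mean reached 5 CPM. The closest to Scn2a were Jmjd1c (0.104), Cep170 (0.112) and Scn3a (0.121), against a median distance from Scn2a of 1.06 over all genes compared. That median was 0.982 for Scn3a, 0.577 for Scn8a, 1.26 for Scn9a, 0.379 for Scn3b, 0.328 for Atp1b1 and 0.304 for Atp1b3. The closest to Scn3a were Soga3 (0.087) and Jmjd1c (0.104). For Scn8a they were Prune2 (0.139), Galnt7 (0.149) and Smarcc1 (0.152), and for Scn9a, with its few counts, Golim4 (0.335), Polq (0.353) and Dcx (0.356). Tmcc1 (0.089), Slc20a1 (0.102) and Lman1 (0.102) were closest to Scn3b. Srsf2 (0.0642), Wdr33 (0.0694) and Ssrp1 (0.0732) were closest to Atp1b1, and Akirin1 (0.0784), Tada2b (0.0835) and Gripap1 (0.0861) to Atp1b3. The genes nearest to Scn2a, Scn3a, Scn8a and Scn9a all had log2 fold changes between -1.34 and -0.46. These are distances over the same libraries that gave the fold changes, and are given as a description.

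Around the members, 85 symbols of sodium transport were listed, of which 55 were in the table. Of these, 7 were higher, 29 were lower and 19 did not pass, with a median log2 fold change of -0.27, against 31.2% higher and 31.6% lower and a median of -0.0033 over all genes tested. With the GC and length slopes of each library as covariates, the same lists held 13 higher and 14 lower genes. The counts include the members. All 5 measured α-subunit genes of 10 listed were lower (median -1.11).

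Among channel partners, 18 of 19 were measured, with 2 higher, 11 lower and 5 not passing. The shares over all genes tested were 31.2% higher and 31.6% lower. Cntn1 (-1.46, edgeR adjusted p = 1.56e-06), a surface protein that binds channel β subunits, Nrcam (-0.92, 4.9e-06), a cell adhesion molecule of the axon initial segment and node of Ranvier, Fgf13 (-0.64, 0.000344), an intracellular channel-binding factor, and Nedd4 (-0.61, 8.28e-05), a ubiquitin ligase, were lower on the log2 scale. With the slopes as covariates Fgf13 did not pass (-0.36, edgeR adjusted p = 0.12). Of the pump regulators 3 of 11 were measured, and Fxyd6, a small membrane protein of the pump, was lower (-0.24, edgeR adjusted p = 0.00599, and 0.055 with upper-quartile scaling) while 2 did not pass. In the sodium leak channel complex, 3 of 7 listed symbols were measured, and the channel gene Nalcn was not among them. Unc80 (-0.92, edgeR adjusted p = 0.000354) and Unc79 (-0.21, 0.0225), its auxiliary subunits, were lower, and Fam155a (0.20, 0.00138), a further subunit, was higher. These calls depended on the fit. Unc79 did not pass with upper-quartile scaling (-0.16, edgeR adjusted p = 0.055), with the trend removed (-0.03, 0.46) or with the slopes as covariates (0.00, 0.96), Unc80 did not pass with the covariates (-0.10, 0.083), and Fam155a did not pass with the trend removed (0.10, 0.10).

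Of the epithelial and acid-sensing sodium channels 4 of 7 were measured. The acid-sensing Asic1 (-0.43, edgeR adjusted p = 3.28e-08) and Asic4 (-0.49, 0.00102) were lower, and Asic2 (0.94, 1.04e-08) was higher, averaging 7.18 CPM without and 13.8 CPM with verapamil, with all 12 verapamil libraries above every control, as for 4.95% of all genes. Scnn1g, an epithelial channel subunit named after its values were seen, was also lower, averaging 1.52 CPM without and 0.298 CPM with verapamil. Of the exchangers and cotransporters 15 of 19 were measured, with 1 higher, 5 lower and 9 not passing. Over all genes tested, 31.2% were higher and 31.6% lower. Slc9a7 (-0.99) and Slc9a2 (-0.57), sodium/proton exchangers, Slc8a1 (-0.80), a sodium/calcium exchanger, and Slc12a2 (-0.77), the sodium-potassium-chloride cotransporter, were lower on the log2 scale (edgeR adjusted p of 0.000513, 1.42e-05, 1.68e-05 and 0.0027). With the GC and length trend removed, Slc8a1 turned to 0.24 (edgeR adjusted p = 0.028), while with the slopes as covariates it stayed lower (-0.24, 9.5e-05). With the covariates, Slc12a2 turned to 0.09 (edgeR adjusted p = 0.25) and Slc9a7 was at -0.13 (0.23), so neither passed.

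**Figure D5:**
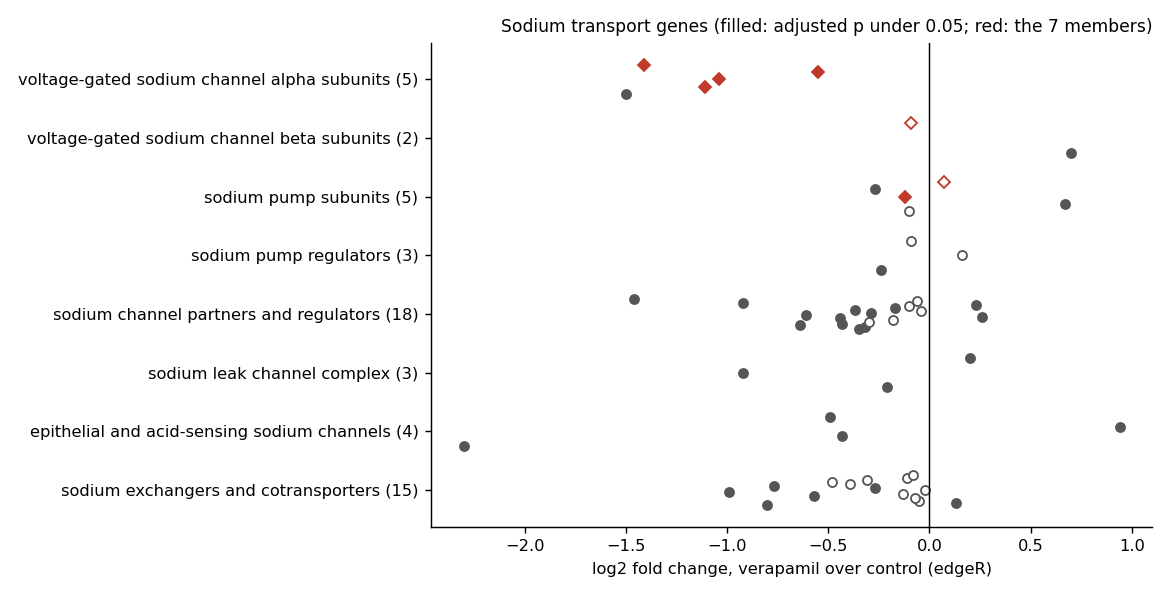
Log2 fold change, verapamil over control (horizontal axis), of the measured genes in each list (vertical axis, number measured in brackets), filled where the edgeR adjusted p was under 0.05 and red for the 7 members. The 5 α-subunit genes all lie below 0, while Asic2 lies at 0.94.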

How the data were processed

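The authors deposited 1 table of read counts per gene for 24 libraries of MIN6 cells, counted with HTSeq 0.9.1 after trimming with Trimmomatic 0.39 and alignment to GRCm38 with HISAT2 2.1.0 (base calls converted with bcl2fastq 2.20). The annotation release and the strand setting were not given in any source used. The labels and the study's methods name different library kits and RNA inputs. The table's columns of the authors' own comparison (mean log2 CPM, fold changes and p-values) were not used. Columns were matched to samples by label, and 4 columns (2 per group) that fitted more than 1 sample entered as replicates without a number, placed in set 4 by elimination. The experiment set was read from the leading digit of the sample's description label, a reading the labels do not spell out.

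From the counts, edgeR 4.0.16 in R 4.3.3 (filterByExpr with a minimum count of 10 and a minimum total of 15, TMM factors, glmQLFit and glmQLFTest) was fitted to all libraries, with Benjamini-Hochberg adjustment over 12306 genes and a threshold of 0.05. Log2 CPM used a prior count of 2. Lengths, GC content and coordinates came from GENCODE M21 (GRCm38), which matched 12308 of 12310 gene identifiers, and promoters from RefSeq. Alternatives were DESeq2 1.42.0, other scaling factors and filters, sums per set, single sets, left-out libraries and correction for the GC and length trend. The scripts were tested on simulated data. Named were the 7 members, of each list up to 4 further called genes with the largest fold change whose mean reached 1 CPM, and the 3 nearest patterns per member, leaving out predicted genes and pseudogenes. The members, lists and tests were chosen with earlier results of these data known, and V11 was left out as an alternative chosen after seeing the data. Every pair of libraries within a group differed beyond counting noise (chi-square divided by its degrees of freedom was 5.73 or more). Some genes and sequences that the rule would name are not reported here.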

Additional observations from a re-analysis of the deposited data

Results flagged for a closer look

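The Atp1b1 sums per experiment set were screened for values far from the rest, as were those of the other members, in 14 groups of 4 sums in all, of which chance flags about 1 in 20. One sum stood apart. The control sum of set 4 was 8.61 on the log2 CPM scale and the other 3 control sums of Atp1b1 were 8.51 to 8.52, a gap of 0.907 of the range, which is above Dixon's critical value for 4 values. The 4 verapamil sums of Atp1b1 were 8.33 to 8.51.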

How the results depend on the processing

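Of 25 alternatives, 24 left the call and direction of Scn2a and of Scn3a in place, 23 that of Scn8a, 22 that of Scn9a and of Scn3b, 17 that of Atp1b1 and 19 that of Atp1b3. Log2 fold changes ranged from -1.80 to -0.27 for Scn2a, -1.62 to -0.24 for Scn3a, -0.72 to -0.05 for Scn8a and -2.15 to -0.48 for Scn9a. Where a call or direction changed, the cause was not tested.

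Each set alone has 3 libraries per group. Within set 1, 1680 genes were higher and 1721 lower, the sodium transport lists held 4 higher and 18 lower genes, Scn9a (-0.52) and Atp1b1 (-0.04) lost their calls and Scn3b was at 0.002. Within set 2, Atp1b1 (-0.14) lost its call and Atp1b3 was at -0.01. Within set 3, 2445 genes were higher, Atp1b1 (-0.18) lost its call and Atp1b3 was at -0.0043. Within set 4, 39 genes were higher and 11 lower, the lists held 0 higher and 1 lower, and the calls of Scn2a (-0.75), Scn3a (-0.74), Scn8a (-0.53), Scn9a (-1.78) and Atp1b1 (-0.15) were lost. Without set 2, 2518 genes were lower, and without set 3, Atp1b1 was at -0.11 (edgeR adjusted p = 0.054). Scn3b was called lower without the verapamil libraries of set 4 (-0.15) and Atp1b3 higher without those of set 3 (0.12). Summing the counts per set gave 2124 lower genes and an uncalled Atp1b1 (-0.12).

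Upper-quartile scaling shifted the median of all genes to 0.058, left Atp1b1 uncalled (-0.06) and called Atp1b3 higher (0.14). With the GC and length trend removed, Atp1b3 was at -0.01. With the trend's slopes as covariates, 1743 genes were lower, the lists held 13 higher and 14 lower genes, Scn8a (-0.05), Scn9a (-0.48) and Atp1b1 (-0.06) lost their calls, and Scn3b (0.26) and Atp1b3 (0.15) were called higher. The interaction of treatment and set reached an edgeR adjusted p of 0.0152 for Scn2a, 0.0392 for Scn3a and 0.0375 for Scn9a without set 4, where 18.4% of all genes passed. Without V11 it was 0.000509 for Scn2a, 0.00335 for Scn3a, 0.0445 for Scn9a and 0.0251 for Scn3b.

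Control and verapamil libraries share replicate numbers. Over 10 numbered pairs, deviations from the group means correlated between -0.0509 and 0.114, and 0 controls correlated best with the verapamil library of their own number, so the numbers were not taken as pairs. With the replicate number as a block, over 20 libraries, Scn2a was at -1.30, Scn3a at -1.21, Scn8a at -0.53, Scn9a at -1.49, Scn3b at -0.10, Atp1b1 at -0.13 and Atp1b3 at 0.05, and no member's call changed. Depth limits Scn9a, whose lowest library held 4 counts. With merged exon lengths in place of transcript lengths, chosen after seeing the data, Scn3a made up 67.6% and Scn8a 22.4% of the α-subunit level with verapamil.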
